A study of Mus musculus with 4 samples.

Results

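Long intergenic non-coding RNAs (lincRNAs) are transcripts that encode no known protein and lie apart from annotated protein-coding genes. Of the 54532 genes in the count tables, 5559 carried the annotation lincRNA, 1398 of these had at least 1 count, and 136 reached the minimum of 200 raw counts summed over the 4 libraries. These 136 lincRNAs, all with at least 19 counts in every library, are described here. They were chosen by their summed count, which is a level, so their levels are given as a description. Just inside the minimum were Gm37168 with 200 counts, and Gm26669 and Gm12474 with 204 each. Just outside it were Gm29367 with 198, and Gm32856 and C030034I22Rik with 199 each.

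The RNA was that of microglia cultured from the brains of male CD1 mouse pups. Cells were kept in serum-free medium for 24 h with 1 µM epigallocatechin gallate (EGCG), a green tea flavan-3-ol, or with its DMSO vehicle, and poly-A RNA was sequenced from 2 biological replicates of each. The microglia were those left on the dish after the astrocyte layer of a mixed glia culture had been removed, and all groups share that origin. The labels do not say whether libraries with the same replicate number came from the same animals, so p-values below measure the spread between these libraries only.

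Where values of all 4 libraries are listed below, the order is vehicle then EGCG of replicate 1, and vehicle then EGCG of replicate 2. Counts on genes were 33752397, 34259608, 36265508 and 54909854 in this order. Levels are given as CPM (counts made comparable between libraries by TMM scaling and the sequencing total), and as CPM per kilobase of gene length wherever genes are compared with each other. The 10 microglia markers had counts in every library and summed to between 5589 and 8153 CPM. EGCG replicate 1 stood apart from the other libraries in its connective tissue transcripts. Col1a1, Col1a2, Col3a1, Dcn, Lum and Thy1 together had 17 counts there, against 13787 in its vehicle library and 5735 and 9566 in the vehicle and EGCG libraries of replicate 2. The 10 stromal markers, which include the far more abundant Fn1 and Postn, summed to 3003, 1897, 868 and 945 CPM. Neuron markers summed to 18.1 and 16.9 CPM in replicate 1 and to 1.05 and 1.70 in replicate 2 (vehicle, then EGCG), with Syt1 and Tubb3 at 0 in some library. Astrocyte markers summed to between 13.7 and 19.2 CPM. Markers of dividing cells summed to 50.05 and 48.10 CPM in replicate 1 and to 22.98 and 27.87 CPM in replicate 2. In RNA from whole cultures, fewer cells of one type cannot be told apart from less of an RNA in each cell.

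LincRNAs work as RNA. Some, such as Malat1 and Neat1, are held in nuclear bodies. Others bind proteins or microRNAs in the cytoplasm, and many are spliced precursors whose introns or exons release microRNAs or small nucleolar RNAs (snoRNAs). In macrophages and microglia, several lincRNA genes are switched on by inflammatory signals or host microRNAs of the immune system.

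Of the 136 lincRNAs, 10 held a total of 17 microRNA hairpins of the RefSeq table whole within their span and on the same strand, and 5 held snoRNA genes in the same way. The hosts best known from immune cells are Mir142hg (chr11:87755577-87757270), whose microRNA is restricted to blood-derived cells, Mir155hg (chr16:84703167-84715245), which is induced during inflammation, and Mir17hg (chr14:115042879-115046727), the precursor of a cluster linked to proliferation. Their mature microRNAs, from RefSeq on GRCm38.p6, are shown because the seed (bases 2 to 8, in capitals) sets which messages each one can pair with. The libraries measured the host transcripts, not these mature forms.
miR-142a-5p: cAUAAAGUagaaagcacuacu
miR-142a-3p: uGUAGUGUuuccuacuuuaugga
miR-155-5p: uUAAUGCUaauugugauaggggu
miR-17-5p: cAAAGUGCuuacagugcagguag
miR-20a-5p: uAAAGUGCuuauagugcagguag
miR-18a-5p: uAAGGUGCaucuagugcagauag
miR-19a-3p: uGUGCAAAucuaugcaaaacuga
miR-19b-3p: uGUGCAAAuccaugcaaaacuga
miR-92a-3p: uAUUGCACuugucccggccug
Within the Mir17hg cluster, miR-17-5p and miR-20a-5p carry the same seed, and so do miR-19a-3p and miR-19b-3p. The seeds of miR-142a-5p, miR-142a-3p and miR-155-5p are shared by no other sequence shown.

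The 136 lincRNAs took a small part of the RNA, and in replicate 2 just over 50% of that part was 1 gene. They held 0.329% and 0.297% of the counts in replicate 1 (vehicle, then EGCG) and 0.485% and 0.473% in replicate 2. Gm42418 alone made up 12.4%, 9.21%, 50.5% and 54.9% of the lincRNA counts in the 4 libraries. Without it the order of the replicates turned, with 0.288% and 0.269% of counts in replicate 1 and 0.240% and 0.213% in replicate 2. Of the remaining lincRNA counts, 45.7% were on Neat1 and Malat1, and 97 of the 136 genes had fewer than 1000 counts in all.

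Per kilobase, the median lincRNA stood at 1.58 CPM, against 6.62 for the 10981 protein-coding genes that reached the same summed count. Only 16 lincRNAs were above 10 CPM per kilobase. Gm42418 came first, at 223, 154, 1310 and 1408 CPM per kilobase, so its replicates did not overlap. AW112010, an interferon-responsive transcript of immune cells that also yields a small protein, followed with 54.7, 72.4, 83.0 and 91.0 CPM per kilobase. Malat1 had 78.7, 68.3, 72.4 and 52.2. The ranges of AW112010 and Malat1 overlapped, so their order was not fixed by these libraries.

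The next highest per kilobase were 2900097C17Rik, the mouse Norad transcript that binds Pumilio proteins, and Gm36161. 2900097C17Rik ranged from 37.6 to 45.2 CPM per kilobase and Gm36161 from 31.1 to 44.8, and these ranges overlapped too. Neat1, the scaffold of paraspeckles, lay between 40.9 and 43.2 in replicate 1 and between 24.0 and 26.9 in replicate 2. Gm10076 had 66.8 in Vehicle replicate 1 but only 16.7 to 27.1 in the other 3 libraries. Gm26917, Epb41l4aos and AU020206 closed the first 10, with means of 25.8 ± 10.01, 24.8 ± 4.08 and 21.9 ± 10.6 CPM per kilobase (SD over the 4 libraries). The lowest of the 136 was at 0.209 CPM per kilobase.

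Below these, the lincRNAs with a described role are given as mean ± SD per kilobase over the 4 libraries. Mir142hg stood at 17.6 ± 2.25 CPM per kilobase and 1700020I14Rik (Cyrano, a transcript that binds miR-7) at 16.1 ± 1.92, a gap within their spread. The snoRNA hosts Snhg6 and Snhg12 stood at 9.08 ± 1.85 and 6.53 ± 0.69. Dubr was at 4.66 ± 1.33, the snoRNA host Snhg20 at 3.03 ± 0.20 and Gm14005 (Morrbid) at 1.71 ± 0.78. Mir155hg and Mir17hg lay close together at 1.33 ± 0.29 and 1.09 ± 0.20, far below the miR-142 host per kilobase in every library. For Mir17hg that gap rests largely on gene length in the files, 269 bases for Mir142hg against 3536 for Mir17hg. Before scaling by length, Mir142hg had 4.56, 4.39, 5.62 and 4.34 CPM and Mir17hg 4.59, 4.33, 3.24 and 3.22 CPM. Mir155hg had a mean of 1.90 CPM against 4.73 for Mir142hg, so much of its gap per kilobase also rests on gene length. Pvt1, a neighbour of Myc, was at 0.68 ± 0.09, and Trp53cor1 and Ftx were lowest at 0.36 ± 0.20 and 0.31 ± 0.08.

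**Figure D1:**
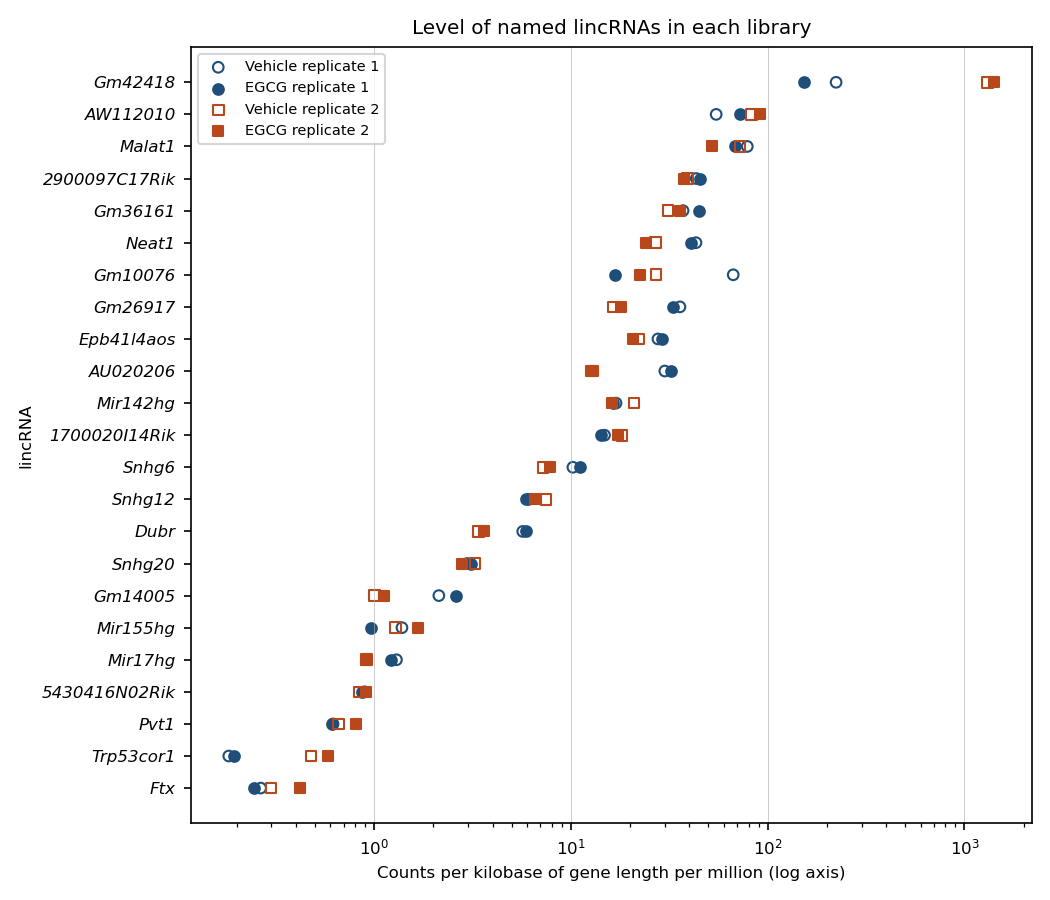
CPM per kilobase of gene length (log axis) in each of the 4 libraries for the 10 highest lincRNAs and for those with a described role; circles are replicate 1, squares replicate 2, open symbols vehicle and filled symbols EGCG. Gm42418 sits between 154 and 1408, far right of the others and split by replicate, while Ftx and Trp53cor1 lie under 1.

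Several of the 136 genes are not lincRNAs in RefSeq, or share their sequence with a far more abundant gene. RefSeq entries were found for 91, of which 79 were long non-coding RNAs, 9 protein-coding genes and 3 pseudogenes or transcribed pseudogenes. Gm42418 is listed there as Rn18s-rs5, a pseudogene of 18S ribosomal RNA (chr17:39846354-39848202). It has 1 exon and lies opposite the ribosomal RNA gene CT010467.1, with which it shares 100% identity over 67.9% of its length. CT010467.1 had 211, 198, 853 and 1155 counts in the 4 libraries, again higher in replicate 2. Rn7sk, another RNA that carries no poly-A tail, had 0.977 and 0.300 CPM in replicate 1 and 5.08 and 5.08 CPM in replicate 2. The mitochondrial ribosomal RNAs mt-Rnr1 and mt-Rnr2 went the other way, with fitted log2 differences (replicate 2 minus replicate 1) of -0.37 and -0.25. What these RNAs have to do with the level of Gm42418 was not tested.

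A match of at least 200 bases at 90% identity to another gene's transcript was found for 53 of the 136, and for 30 it covered at least 50% of a transcript. Gm10076, a pseudogene in RefSeq, matched Rpl41 at 99.5% over 383 bases on the same strand, and Rpl41, a ribosomal protein gene, had between 23609 and 44642 counts per library. AC166110.4 matched the superoxide dismutase gene Sod2 at 98.5% over 3108 bases. Gm36161 matched the protein-coding gene Gm21188 at 95.7% over 1541 bases on the same strand. It had 93.4%, 92.7%, 82.7% and 81.6% of the counts on Gm21188. The EGCG differences in replicates 1 and 2 were 0.27 and 0.20 for Gm36161 and 0.28 and 0.22 for Gm21188. On the opposite strand, Gm26778 matched Kctd12 at 100% over 3687 bases, and its counts were 2.04%, 1.64%, 1.03% and 0.812% of those on Kctd12. Gm26825, at another locus, matched the chaperone gene Hspa8 at 99.6% over 1940 bases on the opposite strand and had 1.65%, 1.82%, 0.955% and 0.775% of its counts. For 13 of the matched lincRNAs the match was the gene on the other strand of the same locus. How reads with several matches were assigned, and whether counting used the strand of the library, is not given in the sources used here, so counts of these genes are uncertain.

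The comparison of EGCG with vehicle asked which of these lincRNAs the flavonoid changed. When treatment was the sole term of the edgeR quasi-likelihood test, 0 of the 136 had an unadjusted p under 0.05. Over all 17967 genes tested, 35 (0.195%) did, 10 higher and 25 lower, and 0 (0.0%) had an adjusted p under 0.1 (Benjamini-Hochberg). DESeq2 with the same design called 34 genes at an unadjusted p under 0.05, 1 of them a lincRNA (Gm10076), and 1 gene at an adjusted p under 0.1. Leaving out a library makes the replicates unequal between EGCG and vehicle, so lincRNAs passing in such fits are not counted. Without Vehicle replicate 2, Gm13710 was fitted at 3.15 (log2), near its difference of 2.95 between replicates. Within replicates 1 and 2 its EGCG differences were 1.44 and 0.09. AI504432 was lower in that fit, but its EGCG differences were -0.71 and 0.05 within replicates, and replicate 2 was lower than replicate 1 by 1.05. Gm10076 was fitted at -1.78, against -1.99 and -0.27 within replicates.

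The median difference between EGCG and vehicle (log2 CPM) over the 136 lincRNAs was 0.01 in replicate 1 and -0.07 in replicate 2, beside 0.02 and 0.00 over all genes tested. It was 2-fold or more for 2 lincRNAs in replicate 1, Gm10076 lower and Gm13710 higher, and for none in replicate 2. The 2 are 1.47% of the lincRNAs, beside 1.38% of protein-coding genes with the same minimum and 9.19% of all genes tested. In replicate 2 these 2 shares were 0.428% and 6.72%. In replicate 1, where the EGCG library nearly lacked the collagen transcripts of its vehicle library, 152 of the 10981 protein-coding genes were beyond 2-fold, 133 of them lower. The difference had the same sign in both replicates for 70 lincRNAs, 31 higher and 39 lower, and opposite signs for 66. With scaling by library totals these became 28, 46 and 62. The differences in the 2 replicates correlated at Pearson r = 0.13 over the lincRNAs, beside -0.04 over all genes tested in the same 4 libraries.

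Among lincRNAs lower with EGCG in both replicates, Gm10076 had the largest mean difference. It had 25.6, 6.40, 10.4 and 8.65 CPM, a log2 difference of -1.99 in replicate 1 and -0.27 in replicate 2 and a fitted difference of -1.26 ± 0.51 (SE). The vehicle libraries were above the EGCG libraries, but 1 library, Vehicle replicate 1, set the size, and the fitted log2 difference was -0.47 without it. Its match Rpl41 differed by 0.29 and 0.01. The other 4 that were lowest with EGCG had low counts. Gm26669, which lies opposite Zfp36l1, had 1.07, 0.871, 1.97 and 1.19 CPM. 2610037D02Rik had 2.52, 1.77, 2.33 and 1.68 CPM. For 2610037D02Rik the EGCG libraries did not overlap the vehicle libraries (-0.49 ± 0.34), and for Gm26669 they did. Gm20045 differed by -0.34 and -0.55 and 9330104G04Rik by -0.40 and -0.40 in the 2 replicates.

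Of those higher with EGCG in both replicates, Gm13710 had 1.63, 4.51, 22.98 and 24.5 CPM. Nearly all of its difference was in replicate 1 (1.44, against 0.09 in replicate 2). Gm37168 had 0.977, 1.80, 0.919 and 1.32 CPM, so the EGCG libraries were higher, by 0.85 and 0.50 (fitted 0.71 ± 0.42). Gm32591, Gm14461 and 1700017M07Rik differed by between 0.34 and 0.55 in every replicate. For these 3 the vehicle and EGCG libraries overlapped, with replicate 1 far above replicate 2 in both.

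**Figure D2:**
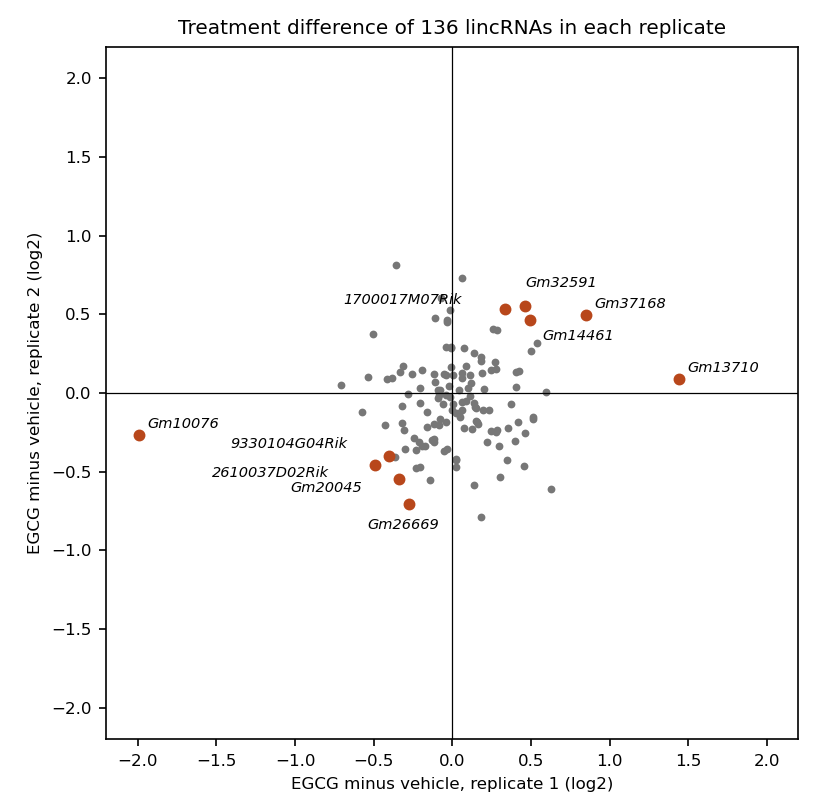
Log2 difference in CPM between EGCG and vehicle in replicate 1 (x axis) and replicate 2 (y axis), 1 point per lincRNA, with 136 points; the labelled points are the 5 largest mean differences in each direction among those of the same sign. Most points lie within 0.5 of 0 on both axes, and the points far from it, Gm10076 and Gm13710, are far only on the x axis.

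Among lincRNAs with roles in inflammation or stress, none passed the test for EGCG with treatment as the sole term. That fit counts the difference between replicates as spread, so not passing does not show that an RNA was unchanged. AW112010 was 0.40 higher in replicate 1 and 0.13 higher in replicate 2 (fitted 0.25 ± 0.27). Mir155hg had 1.98, 1.38, 1.84 and 2.40 CPM, lower with EGCG in replicate 1 and higher in replicate 2. Mir142hg had 4.56, 4.39, 5.62 and 4.34 CPM, and Mir17hg 4.59, 4.33, 3.24 and 3.22 CPM. AI427809 (Mexis, a regulator of cholesterol export in macrophages, named after its values were seen) differed by 0.26 and 0.41 (fitted 0.33 ± 0.39). Malat1 had 550, 477, 505 and 365 CPM, so both vehicle libraries were above the EGCG libraries (-0.21 and -0.47 within replicates). Neat1 differed by -0.08 and -0.17, and its vehicle and EGCG libraries overlapped. AW112010 and Malat1 passed the unadjusted threshold in fits with a replicate block, a pairing that the labels do not give.

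The comparison of the replicate 2 with the replicate 1 cultures, each with 1 vehicle and 1 EGCG library, gave far larger differences. The labels give the replicate number only, and counts came in 1 table per replicate. What is called a culture difference here therefore cannot be told apart from one of library preparation, sequencing or processing. In an edgeR fit with the replicate number as the only term, 74 of the 136 lincRNAs (54.4%) had an adjusted p under 0.1, beside 50.9% of all genes tested and 64.7% of protein-coding genes with the same minimum. Higher in replicate 2 were 32 (23.5%, beside 26.7% of all genes and 38.4% of the protein-coding genes), and lower were 42 (30.9%, beside 24.2% and 26.3%). The count of lincRNAs was 37 without Vehicle replicate 2 and 41 without EGCG replicate 2, and it was 63 without EGCG replicate 1, the library with almost no collagen transcripts. The direction agreed in the vehicle libraries and in the EGCG libraries for 112 of the 136. For 111 (81.6%) the difference between cultures was larger than that between treatments, beside 80.5% of all genes tested.

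The median culture difference was -0.10 over the lincRNAs, -0.01 over all genes tested and 0.08 over the protein-coding genes, and the median size, whatever the sign, was 0.47, 0.42 and 0.30. A difference of more than 2-fold was seen in 28 lincRNAs, 9 higher and 19 lower in replicate 2. These are 20.6% of the lincRNAs, beside 22.9% of all genes tested and 11.3% of the protein-coding genes. A lincRNA expressed mainly in 1 replicate can reach the summed count through that replicate alone. Of the 136, 115 had at least 100 counts in each replicate, and 23 of these were higher and 37 lower in replicate 2. Another 16 reached 100 only in replicate 2, whose EGCG library is the deepest, and 9 of them were called higher. The other 5 reached it only in replicate 1 (Gm32591, Gm14461, F730311O21Rik, A330074K22Rik and Gm47204), and all 5 were called lower.

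**Figure D3:**
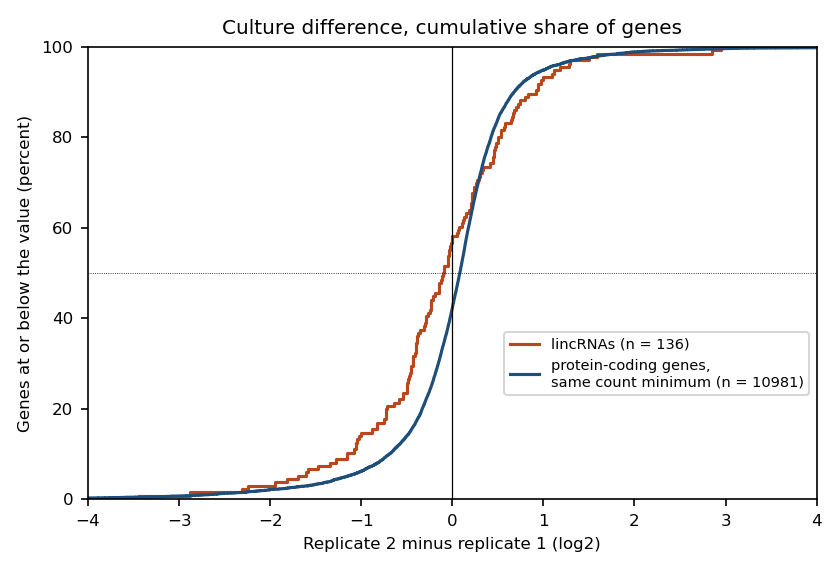
Cumulative share of genes (y axis, percent) at or below each log2 difference between replicate 2 and replicate 1 (x axis, shown from -4 to 4), for the 136 lincRNAs and the 10981 protein-coding genes with the same minimum count. The lincRNA curve is flatter and crosses 50% at -0.10, the protein-coding curve at 0.08.

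Gm32591 fell the furthest in replicate 2. It had 6.01 and 8.29 CPM in replicate 1 and 0.514 and 0.777 in replicate 2 of vehicle and EGCG, a fitted log2 difference of -3.44 ± 0.27 (SE). Gm32089 had 8.94 and 8.83 CPM, then 1.22 and 1.19 (-2.88 ± 0.15). Gm14461, a protein-coding gene in RefSeq, and Gm49249 fell by 2.30 and 2.24 on the log2 scale. In each of the 4, the replicates were far apart and the libraries of a replicate close together.

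A330074K22Rik, 1700017M07Rik, F730311O21Rik and Gm45752 followed, lower in replicate 2 by between 1.61 and 1.95 on the log2 scale. Gm32591, Gm14461, A330074K22Rik and F730311O21Rik reached 100 counts only in replicate 1. Selection by summed count therefore favours a lower value in replicate 2 for them, and their calls are not support for a difference. When single libraries were left out, the fitted differences of the 8 stayed below 0. They lay between -3.78 and -3.18 for Gm32591 and between -1.91 and -1.32 for Gm45752. Among abundant lincRNAs, AU020206 had 95.7 and 102 CPM in replicate 1 and 40.3 and 41.2 CPM in replicate 2 (-1.28 ± 0.06). The stromal marker list was also lower in replicate 2 as a sum, with 3 of its 10 genes called lower. Without Fn1 and Postn the other 8 summed to 416, 5.65, 160.0 and 178 CPM in the 4 libraries, lower in replicate 2 in vehicle but far higher in EGCG. Also lower in replicate 2 were neuron markers (2 of 5) and markers of dividing cells (5 of 5). Their part in these lincRNA differences was not tested.

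Higher in replicate 2, beside Gm42418 (2.85 ± 0.17), was above all Gm13710. At 1.63 and 4.51 CPM in replicate 1 and 22.98 and 24.5 CPM in replicate 2 it differed by 2.95 ± 0.35 (edgeR adjusted p = 0.000454). Its call was lost without Vehicle replicate 2 (adjusted p = 0.112) and without EGCG replicate 2 (0.115), although the difference stayed at 3.01 and 2.91. Gm26520 had 1.21 and 1.68, then 5.08 and 3.67 CPM (1.59 ± 0.26). Trp53cor1 (lincRNA-p21), a target of p53 next to Cdkn1a, had 0.681 and 0.721, then 1.78 and 2.19 CPM (1.502 ± 0.28). Gm26619, 1110002J07Rik, Gm5086 and AI839979 were higher by 1.30, 1.28, 1.19 and 1.12. The call of 1110002J07Rik was also lost without Vehicle replicate 2 (adjusted p = 0.116) and without EGCG replicate 2 (0.165). Of the 10 microglia markers, 6 were higher and 4 lower in replicate 2.

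**Figure D4:**
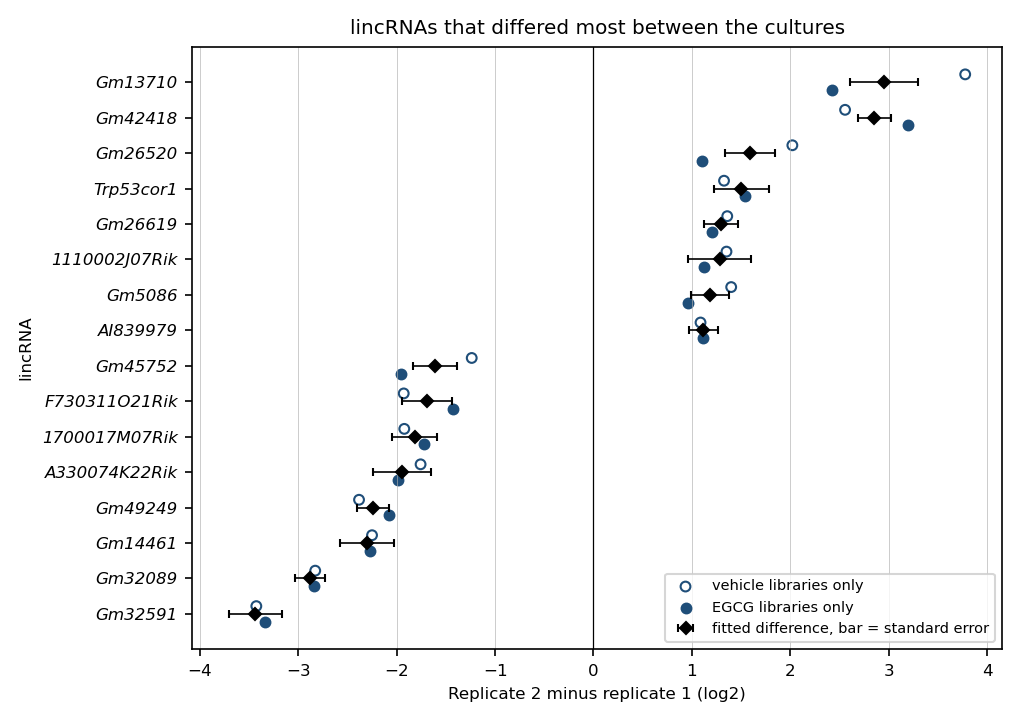
Log2 difference between replicate 2 and replicate 1 (x axis) for the 8 lincRNAs highest and the 8 lowest in replicate 2; diamonds are the fitted difference with its standard error, open circles the vehicle libraries alone and filled circles the EGCG libraries alone. Every circle is on the same side of 0 as its diamond, and Gm13710 has the widest gap between its circles.

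By role, the nuclear and chromatin RNAs numbered 7 among the 136, of which 3 were lower and 1 higher in replicate 2. Of all genes tested, 24.2% were lower and 26.7% higher. Neat1 (-0.73 ± 0.07), Gm26917 (-0.999 ± 0.07) and 2900097C17Rik (-0.21 ± 0.05) were lower, and 1700020I14Rik was higher (0.29 ± 0.05, edgeR adjusted p = 0.00411). The call of 2900097C17Rik was lost without EGCG replicate 2 (adjusted p = 0.109), and that of 1700020I14Rik without Vehicle replicate 2 (0.104). Malat1 (-0.24 ± 0.14), Pvt1 and Ftx, a transcript of the X-inactivation centre, did not pass. Gm26917 lies directly upstream of Gm42418 on chromosome 17 and went the other way, from 119 and 110 CPM in replicate 1 to 54.8 and 59.7 in replicate 2. Of the 15 genes of this list tested under any annotation, 5 were higher and 4 lower in replicate 2. Of the imprinted RNAs, 7 were tested and none reached the minimum as a lincRNA, with 3 higher and 1 lower in replicate 2.

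Of the 9 lincRNAs on the list of small RNA hosts, 4 were lower and 1 was higher in replicate 2, and of the 29 hosts tested under any annotation 13 were lower and 4 higher. The shares over all genes tested were 24.2% lower and 26.7% higher. In the EGCG comparison, 1 of the 29 hosts passed the unadjusted threshold, beside 0.195% of all genes, and none of the genes tested in the other 3 lists did. The host was Snhg18 (named after its values were seen), with only 6, 0, 4 and 1 counts, near the floor of 3 counts. Gm26917, 1 of the 4 hosts lower in replicate 2, and 5430416N02Rik hold no microRNA hairpin or snoRNA gene on their own strand in the annotation used here. The snoRNA hosts Snhg6 (-0.50 ± 0.11) and Epb41l4aos (-0.41 ± 0.10) were lower. The call of Snhg6 was lost without Vehicle replicate 2 (edgeR adjusted p = 0.102) and that of Epb41l4aos without EGCG replicate 2 (0.110). Snhg12 passed the threshold narrowly as higher (0.22 ± 0.09, edgeR adjusted p = 0.0998), and did not pass when any 1 of the 4 libraries was left out, nor in DESeq2. Snhg20 (-0.01 ± 0.12) did not pass. Mir17hg was lower (-0.46 ± 0.16, edgeR adjusted p = 0.0469), a call that was lost without Vehicle replicate 1 (0.129), Vehicle replicate 2 (0.151) or EGCG replicate 2 (0.154). Mir142hg (0.15 ± 0.17) and Mir155hg (0.34 ± 0.28) did not pass, and 5430416N02Rik stayed at 3.43 to 3.72 CPM in all 4 libraries. Apart from Ftx, the other lincRNAs that hold a whole hairpin, E130102H24Rik, 2900076A07Rik, 6720427I07Rik, Gm37233 and 4833445I07Rik (named after their values were seen), differed by between -0.05 and 0.22, and none of them passed. Gm26532, whose first exon overlaps the Mir24-2 hairpin only in part (also named after its values were seen), had 4.89 and 4.27, then 2.08 and 2.31 CPM and was lower (-1.05 ± 0.18, edgeR adjusted p = 0.00271).

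The immune and stress RNAs numbered 9 with Neat1, Pvt1 and the 3 microRNA hosts counted again. Of these, 4 were lower and 2 higher in replicate 2, beside 7 lower and 2 higher of the 20 tested under any annotation. Over all genes tested, 24.2% were lower and 26.7% higher. Gm14005 (Morrbid), which controls the lifespan of short-lived myeloid cells through the neighbouring Bcl2l11, had 8.68 and 10.5 CPM in replicate 1 and 4.08 and 4.55 CPM in replicate 2 (-1.15 ± 0.15, edgeR adjusted p = 0.000634). Dubr had 26.6 and 27.7, then 15.9 and 17.02 CPM (-0.72 ± 0.07). AW112010 went the other way with Trp53cor1, from 42.1 and 55.8 to 63.9 and 70.0 CPM (0.45 ± 0.12, edgeR adjusted p = 0.0202), but its call was lost without Vehicle replicate 2 (0.212) or EGCG replicate 2 (0.304).

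Many of the 136 lie close to a protein-coding gene, with a median gap of 3671 bases to the nearest and 29 overlapping the span of one. For 20, the start site was within 2 kb of a protein-coding start on the opposite strand. These pairs are called divergent here, although not all are read outward from a shared promoter. Gm26902 and Ch25h, Gm26885 and Pim1, 9330175E14Rik and Nlrc5, and A930007I19Rik and Ric1 overlap each other. The culture difference had the same sign in 11 of these 20 pairs (Pearson r = 0.08 across the pairs, which come from the same 4 libraries), and both genes passed the threshold in 9, with the same sign in 6. AI480526 and Setd1b, a histone methyltransferase gene, were both higher in replicate 2 (0.57 ± 0.10 and 0.62 ± 0.06). Gm26902 and Ch25h, which makes the oxysterol 25-hydroxycholesterol, were both lower (-0.64 ± 0.26 and -1.11 ± 0.11), as were Gm7160 and Zcchc2 (-0.88 ± 0.20 and -0.76 ± 0.07).

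Other pairs parted. Gm20186 was higher by 0.94 ± 0.18 while Lsm8, a splicing factor gene, was lower (-0.61 ± 0.09), and 5031425E22Rik was lower (-0.83 ± 0.15) while Kmt2e was higher (0.45 ± 0.06). A330074K22Rik had the largest difference of the divergent lincRNAs (-1.95 ± 0.29), next to a difference of -0.12 ± 0.06 in Gse1, whose start is 226 bases away. Where sequence was shared, the lincRNA and its partner had the same sign in 13 of 20 pairs (Pearson r = 0.52 across pairs from the same libraries). The pair of Gm42418 and CT010467.1 (2.85 and 1.85) lay far from the others, so r depends on it. It was not computed without that pair. AC166110.4 was lower in replicate 2 (-1.47 ± 0.18) although Sod2 was higher by 0.93, and Gm26619 and Gm10260, on opposite strands, were both higher (1.30 and 1.03). Gm26778 (0.07 ± 0.18) did not follow Kctd12, which was higher by 1.07.

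**Figure D5:**
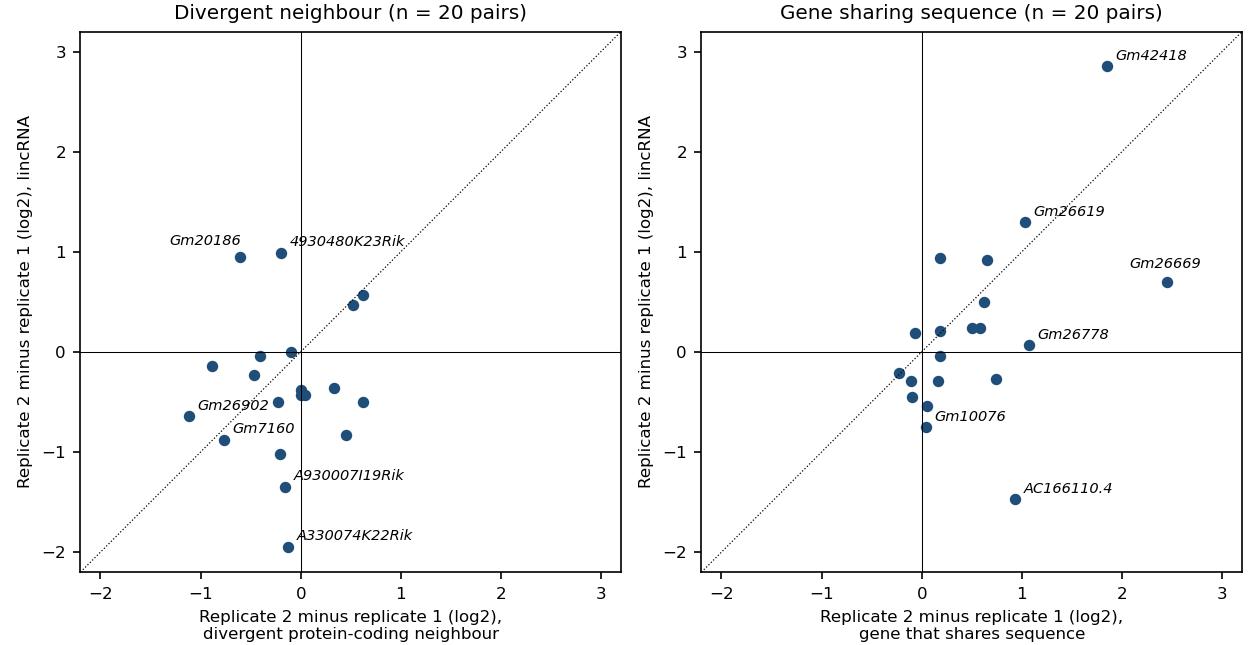
Log2 difference between replicate 2 and replicate 1 of each lincRNA (y axis) against that of its partner (x axis), with the divergent protein-coding neighbour in the left panel (20 pairs) and the gene that shares its sequence in the right panel (20 pairs with at least 200 partner counts); the dotted line marks equal differences. Points in the left panel spread over all 4 quadrants, and in the right panel AC166110.4 lies far below the line and Gm42418 above it.

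RefSeq promoter sequence, from 250 bases before to 50 bases after a gene's start, was in the reference table for 73 of the 136, and in 53 its start lay within 500 bases of the start in the files. The lincRNA promoters held a median of 3 CG dinucleotides per 100 bases, against 6.67 in those of 10730 protein-coding genes. Of the protein-coding promoters 9467 lay within the same 500 bases, and of all 11639 promoters of tested genes 10140. A larger share of the lincRNA windows was thus far from the start in the files, which limits the comparisons in this paragraph. The TATA box letters TATAAA, on either strand, were in 13.7% of the 73 and in 7.54% of all 11639 promoters of tested genes. The letters TGANTCA, which AP-1 binds, were in 8.22% and 5.29%, GGAAGT, which ETS factors such as PU.1 bind, in 28.8% and 28.5%, and CACGTG, the E-box, in 15.1% and 9.89%. None of these motifs contains another. The shares rest on between 6 and 21 promoters and describe the letters only.

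The promoters below belong to lincRNAs from the results above, on GRCm38.p6, with each match in capitals. A330074K22Rik and 1110002J07Rik hold TGANTCA and were among the lowest and among the highest in replicate 2. Gm14461 holds TATAAA, and AW112010 holds none of the 4 motifs.
A330074K22Rik promoter, chr8:120228181-120228480, minus strand: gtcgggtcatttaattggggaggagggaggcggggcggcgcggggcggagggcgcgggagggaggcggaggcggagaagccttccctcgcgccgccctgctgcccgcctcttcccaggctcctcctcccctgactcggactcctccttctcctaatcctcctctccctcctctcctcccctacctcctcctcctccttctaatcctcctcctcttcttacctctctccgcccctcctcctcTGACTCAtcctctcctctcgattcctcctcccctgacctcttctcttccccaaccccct
1110002J07Rik promoter, chr10:66920335-66920634, minus strand: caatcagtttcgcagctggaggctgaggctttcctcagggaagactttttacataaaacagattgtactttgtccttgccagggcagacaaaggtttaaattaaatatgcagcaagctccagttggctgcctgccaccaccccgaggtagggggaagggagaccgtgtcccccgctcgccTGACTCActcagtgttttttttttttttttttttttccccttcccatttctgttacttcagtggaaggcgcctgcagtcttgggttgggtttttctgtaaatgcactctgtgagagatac
Gm14461 promoter, chr2:78237297-78237596, plus strand: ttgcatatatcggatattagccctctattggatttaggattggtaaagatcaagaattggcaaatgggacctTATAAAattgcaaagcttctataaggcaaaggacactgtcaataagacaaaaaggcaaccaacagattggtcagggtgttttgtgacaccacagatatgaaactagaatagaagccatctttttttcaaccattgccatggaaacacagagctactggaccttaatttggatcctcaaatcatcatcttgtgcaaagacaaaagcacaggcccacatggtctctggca
AW112010 promoter, chr19:11050517-11050816, minus strand: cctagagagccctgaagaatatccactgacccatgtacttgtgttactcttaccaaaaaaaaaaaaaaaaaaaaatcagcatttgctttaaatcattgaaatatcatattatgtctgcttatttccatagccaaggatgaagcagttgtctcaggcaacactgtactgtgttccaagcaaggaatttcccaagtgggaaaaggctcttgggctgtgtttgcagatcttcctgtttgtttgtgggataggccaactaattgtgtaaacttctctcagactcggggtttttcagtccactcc
The first holds 5.67 CG dinucleotides per 100 bases, above the lincRNA median but below that of protein-coding genes, and faces the start of Gse1. The other 3 have 2, 0.333 and 0.333 per 100 bases.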

How the data were processed

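Poly-A RNA of 4 microglia libraries, 2 with EGCG and 2 with vehicle, was sequenced as paired-end reads. Unnormalised whole-read counts for each gene were deposited by the authors, in 1 table per replicate. Reads had been aligned with HISAT2 to GRCm38.p6; the counting program, annotation and strand setting are not given in the sources used here. Rows of both tables were matched by Ensembl identifier, and loci without one (697 and 329) were left out.

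The 136 lincRNAs, the lists of RNAs and the markers were chosen with earlier results of these data known. Genes of all biotypes with at least 10 summed counts (17967) were fitted in R 4.3.3 with edgeR 4.0.16 (TMM factors, quasi-likelihood F test, two-sided), once with treatment and once with the replicate number as the only term. Thresholds were an unadjusted p under 0.05 and a Benjamini-Hochberg adjusted p under 0.1. Log2 CPM used a prior count of 2. Of 200 genes changed by 1.5 (log2) among 17967 in simulated counts, edgeR recovered 99% in the treatment fit. The simulated counts held no difference between replicates, unlike these libraries. The share therefore checks the code only and does not give the power of the treatment fit here. With 2 libraries against 2, no permutation p can fall below 0.333. Sequence matches were found with BLAST 2.17.0 in GENCODE M21 transcripts. Alternatives covered DESeq2 1.42.0, scaling, filters, a replicate block and leaving out each library. Depth gives a floor of 3 counts, 0.0546 to 0.0889 CPM, for counting error only.

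LincRNAs were named if among the 10 highest per kilobase, in a list, among the 5 largest same-direction treatment or the 8 largest culture differences each way, or next to the minimum count, with their divergent neighbours. Others (AC166110.4, Gm26778, Gm26825, AI504432, AI427809, Gm47204, AI480526, Gm26902, Gm7160, Gm20186, 5031425E22Rik, the non-lincRNA transcripts, and the genes sharing their sequence, and the split of the stromal list) were picked after their values were seen.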

Additional observations from a re-analysis of the deposited data

How the results depend on the processing

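Of the 136 lincRNAs, 0 passed the unadjusted threshold for EGCG in the main edgeR fit, and this stayed 0 with the newer edgeR dispersion method, with each other scaling, with 10 counts in every library, with 213 or 92 lincRNAs (summed counts of 100 or 400) and, in an alternative chosen after seeing the data, with the 106 that had no match over at least 50% of a transcript. It was 1 in DESeq2 and 1 with no filter on low counts (Gm10076 in both), and between 0 and 3 when a library was left out. Over all genes, the 35 became 106 with the newer dispersion method, 10 with 10 counts in every library (fewer genes tested) and 34 to 169 when a library was left out. At an adjusted p under 0.1, DESeq2 called 1 gene.

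Whether replicate numbers pair the libraries is not given by the labels. With a replicate block, edgeR called 638 genes at an unadjusted p under 0.05 (3.55%) and 1 at an adjusted p under 0.1, and 9 lincRNAs at the unadjusted threshold: AW112010, 1700017M07Rik, Gm32591 and Gm36161 higher, and Malat1, Gm10076, Gm26778, Gm37494 and Gm42047 lower. DESeq2 with a replicate block called 167 genes (8 adjusted) and 3 lincRNAs (AW112010, Malat1 and Gm36161), 1 of them at the adjusted threshold (Malat1). Over the lincRNAs, the difference between cultures in vehicle correlated with that in EGCG (Pearson r = 0.90 over 136 genes of the same 4 libraries).

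In the culture comparison, the 74 lincRNAs ranged from 37 to 64 and the 9146 genes from 5337 to 7972 when a library was left out, and lay within 1.5 times of these counts in all other settings, where 56 to 109 lincRNAs passed. Small differences turned in sign: Snhg20 to 0.027 with library totals and 0.0015 with no filter, and 5430416N02Rik to 0.0019 with the newer dispersion method, 0.035 with library totals and 0.011 with no filter. When a library was left out, the culture differences of Snhg20 (-0.12 to 0.10), Mir142hg (-0.035 to 0.33) and 5430416N02Rik (-0.062 to 0.060) and the EGCG differences of Gm13710 (-1.46 to 3.15), Gm32591 (-2.06 to 3.13), Gm14461 (-1.09 to 2.07) and 1700017M07Rik (-0.73 to 1.67) changed sign. Without 1 library the replicates are unequal between EGCG and vehicle, so the fitted EGCG difference holds part of the difference between replicates. Within replicates 1 and 2, EGCG differences were 0.46 and 0.55 for Gm32591 and 0.49 and 0.47 for Gm14461. They were 0.34 and 0.54 for 1700017M07Rik, and 1.44 and 0.09 for Gm13710. What turned the signs of the culture differences was not tested. Mature microRNAs were not analysed here.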
